A study of Mus musculus with 10 samples.

Results

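The Naip family genes of the mouse were followed here through every probe that the array carries for Naip1, Naip2, Naip5 and Naip6. The members were chosen by the RefSeq accession of each probe, and Naip6 was selected on its wide variation between these same arrays, so its values are a description and carry no test. The 4 genes were found, of 18535 genes that could be named on the array, and they are read by 5 of its 41174 probes. Naip1, Naip2 and Naip5 have 1 probe each, whereas Naip6 has 2 probes under a single accession.

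RNA came from the left hemibrains of 10 male C57BL/6J mice, which arrived at 3 weeks of age and were killed at 5 months after about 20 weeks on their food. The study compared a fish oil enriched diet (FD), which the labels call n-3 PUFA enriched, with a standard lab diet (SD). On each array the hemibrain RNA of 1 mouse was labeled with Cy-5 and set against RNA labeled with Cy-3, which the methods call a commercial reference and the labels pooled hemibrain RNA of the SD group. Genes of neurons were 8.65-fold to 323-fold higher in the Cy-5 RNA at their medians, so the ratios given here set hemibrain against an RNA with far less of them. By the diet field of the labels all 10 mice ate FD, their descriptions call all 10 controls, and the methods name both diets without saying which arrays they mean. The diet of each array was therefore left unassigned, the diets were not compared, and each value is named by its animal or summarised as the median and range over the arrays.

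NAIP proteins are cytosolic sensors of bacteria that belong to the NLR family. A NAIP that has bound its ligand recruits NLRC4, and the resulting inflammasome activates caspase-1, which matures IL-1β and IL-18 and cleaves gasdermin D. Mouse NAIP1 and NAIP2 recognise the needle and the inner rod protein of bacterial type III secretion systems, and NAIP5 and NAIP6 recognise flagellin. The genes also carry the baculovirus repeats of the inhibitor of apoptosis family, from which their older name Birc1 derives, and they are best known from macrophages and intestinal epithelium.

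In the RefSeq annotation the 4 genes lie on chromosome 13 in the order Naip2, Naip5, Naip6 and Naip1, with pseudogenes of the family between them and Smn1 beside Naip2. The copies are close relatives, so a probe for any of them may also take signal from another copy or a pseudogene, and its specificity could not be checked because no probe sequence was used here. The 300 bases around the annotated start of each gene, 250 before it and 50 after it, are shown to let the copies be compared. They are RefSeq sequences of assembly GRCm38.p6, all on the minus strand, at chr13:100452815-100453114 for Naip1, chr13:100202073-100202372 for Naip2, chr13:100247287-100247586 for Naip5 and chr13:100316567-100316866 for Naip6. Capitals mark the 34 letters that Naip2 and Naip5 share without a mismatch and the 11 letters that Naip1, Naip2 and Naip5 share.
Naip1: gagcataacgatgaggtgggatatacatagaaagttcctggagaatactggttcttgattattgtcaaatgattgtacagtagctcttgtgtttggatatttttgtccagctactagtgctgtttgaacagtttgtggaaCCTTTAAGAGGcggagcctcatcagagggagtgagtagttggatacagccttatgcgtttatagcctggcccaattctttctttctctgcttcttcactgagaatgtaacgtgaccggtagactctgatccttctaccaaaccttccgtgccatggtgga
Naip2: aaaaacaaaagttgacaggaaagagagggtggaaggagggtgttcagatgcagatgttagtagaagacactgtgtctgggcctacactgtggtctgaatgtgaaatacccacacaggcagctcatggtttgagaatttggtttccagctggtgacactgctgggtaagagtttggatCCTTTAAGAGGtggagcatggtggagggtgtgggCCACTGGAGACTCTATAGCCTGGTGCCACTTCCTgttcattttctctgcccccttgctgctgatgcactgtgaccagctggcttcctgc
Naip5: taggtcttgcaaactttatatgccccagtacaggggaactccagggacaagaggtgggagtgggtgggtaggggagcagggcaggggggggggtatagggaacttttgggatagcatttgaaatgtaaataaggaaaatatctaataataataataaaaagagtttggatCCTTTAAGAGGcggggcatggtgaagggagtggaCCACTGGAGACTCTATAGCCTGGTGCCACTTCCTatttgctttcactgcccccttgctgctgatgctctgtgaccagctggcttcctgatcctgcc
Naip6: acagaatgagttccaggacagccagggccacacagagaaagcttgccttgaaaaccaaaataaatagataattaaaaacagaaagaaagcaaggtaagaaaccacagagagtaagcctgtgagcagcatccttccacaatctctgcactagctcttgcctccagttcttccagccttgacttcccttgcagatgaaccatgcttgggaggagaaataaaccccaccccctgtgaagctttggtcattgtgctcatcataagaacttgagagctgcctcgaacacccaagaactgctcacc

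The run of 34 letters was found in 2 of 32851 promoters of this length, those of Naip2 and Naip5, with both strands searched. The run of 11 letters was found in 30 of them, or 0.0913%. The window of Naip6 held neither run, and the longest exact run it shared with another member was 9 letters, with Naip1. These letters describe a single annotated start per gene and say nothing of which start is used in brain.

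The 10 arrays came from 4 slides, of which slides 2 and 3 held 4 arrays each and slides 1 and 4 held a single array each, C10-413 and C10-437. Probes well above background, a flag set by the scanning software, made up 49.8% of probes in Cy-5 on C10-434, against 68.2% to 76.9% on the other arrays, and 61.9% to 79.1% in Cy-3. Each Naip probe had 1 spot per array, never saturated. In Cy-5 49.4% of all probes passed this flag on all 10 arrays, and in Cy-3 60.9% did. Of the 5 Naip probes, 2 passed on all arrays in Cy-5 (Naip5 and a probe of Naip6) and 3 in Cy-3 (those and Naip2). Precision is limited by how few arrays there are and how dim some spots were, and in whole hemibrain fewer cells of a type cannot be told apart from less RNA per cell.

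The members fell on both sides of the reference. Naip6, by its brighter probe, was far higher in the hemibrain RNA than in the Cy-3 RNA on all 10 arrays, with a median log2 Cy-5/Cy-3 of 4.28 (19.4-fold). Naip2 was far lower on all 10 arrays, with a median of -4.20 (18.3-fold lower), and Naip5 was lower on all 10, with a median of -2.39 (5.23-fold lower). Naip1 lay close to the reference, with a median of -0.36, and was mostly too dim in Cy-5 to be measured. In the whole set of 40060 probes with a value on every array, 12.4% were at least 2-fold higher in Cy-5 on all 10 arrays and 14.3% were at least 2-fold higher in Cy-3, and the median probe stood at 0.03. The 4 genes include 1 of the first kind and 2 of the second. The directions of these 3 genes held under every setting run, although some settings, such as the deposited table with its same values, could not change them. Their sizes moved with the background correction. With normexp the medians were 2.84 for Naip6, -2.31 for Naip2 and -1.29 for Naip5. On C10-413 the normexp ratios came close to 0, at 0.14, -0.17 and -0.06 for the same genes. With subtraction and a floor the medians were 3.34, -2.65 and -1.45.

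**Figure D1:**
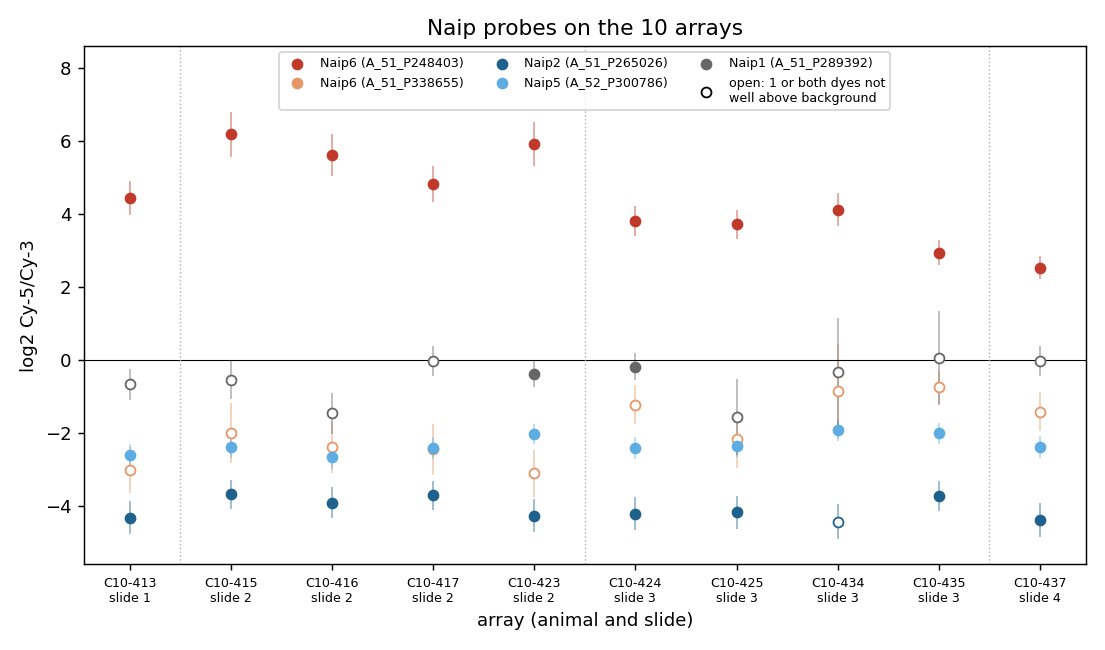
Log2 Cy-5/Cy-3 of the 5 Naip probes (y axis) on each of the 10 arrays (x axis, with dotted lines between slides), where bars give the error that the scanning software assigned to each ratio. Filled points were well above background in both dyes. The brighter Naip6 probe lies between 2.53 and 6.18, above all other Naip probes, whereas Naip2 lies between -4.43 and -3.68 and Naip5 between -2.65 and -1.93.

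Naip6 was read by the probes A_51_P248403 and A_51_P338655, both designed to NM_010871. The brighter, A_51_P248403, was well above background in both dyes on all 10 arrays. Its log2 Cy-5/Cy-3 was 4.43 on C10-413, 6.18 on C10-415, 5.61 on C10-416, 4.82 on C10-417, 5.92 on C10-423, 3.79 on C10-424, 3.71 on C10-425, 4.12 on C10-434, 2.93 on C10-435 and 2.53 on C10-437. The ends of this order, C10-437 and C10-415, were 3.65 apart on the log2 scale, which is a 12.5-fold difference in the ratio, from 5.78-fold above the reference to 72.3-fold. The software's own error for these spots ran from 0.31 to 0.63, and the error of the difference between the ends was 0.70. Of the 9 pairs of neighbours in the order, 7 differed by less than their combined error, and the widest step was 0.78, between C10-417 and C10-416. No single array stood apart. The Cy-3 signal of C10-415, the highest array, was dim, with a median of 55 over a background of 24. With normexp the ends of the order were instead C10-413, at 0.14, and C10-423, at 4.58. With subtraction and a floor they were C10-437, at 1.99, and C10-423, at 4.54.

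The spread of the brighter Naip6 probe was wide among the probes of the array. Among 17612 probes well above background in both dyes on all arrays, the median range of log2 Cy-5/Cy-3 was 0.84, and 99.9% of them had a smaller range than Naip6. Naip5, which met the same condition, had a range of 0.73, and 36.9% of these probes had a smaller one. The members had been chosen with the spread of Naip6 known, so its place in this distribution only describes it.

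**Figure D2:**
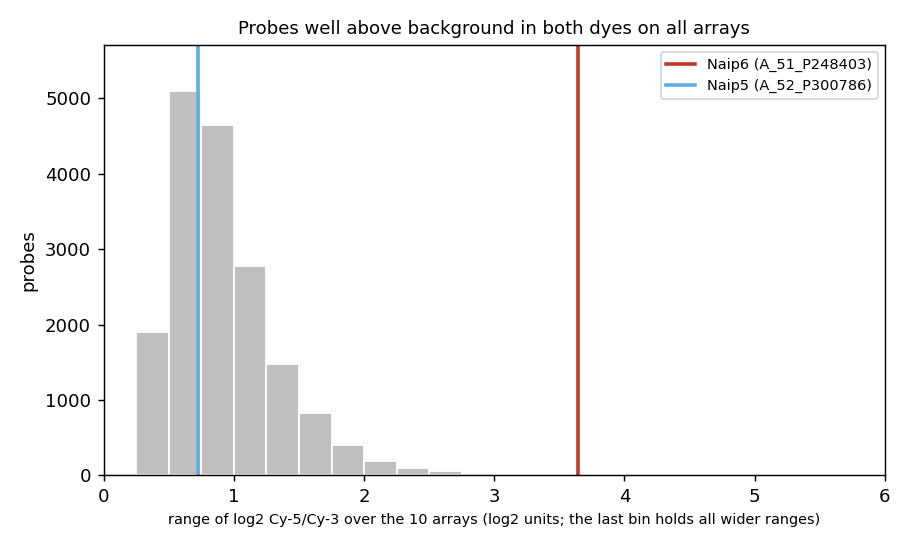
Number of probes (y axis) by the range of log2 Cy-5/Cy-3 over the 10 arrays (x axis, log2 units), for the 17612 probes well above background in both dyes on all arrays. Vertical lines mark Naip5 at 0.73, inside the bulk of the probes, and the brighter probe of Naip6 at 3.65, in the far right tail.

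The variation of Naip6 was in both dyes. A level is given here as the log2 of the processed signal less the median of all probes in that dye on that array, and it is compared only between arrays. In Cy-5, the hemibrain RNA, the level of the brighter probe was 2.82 on C10-413, 3.44 on C10-415, 3.98 on C10-416, 3.33 on C10-417, 3.71 on C10-423, 3.31 on C10-424, 2.77 on C10-425, 3.54 on C10-434, 2.49 on C10-435 and 1.86 on C10-437. In Cy-3, the RNA it was compared with, the level was -1.55, -2.73, -1.60, -1.46, -2.17, -0.43, -0.88, -0.65, -0.39 and -0.65 on the same arrays in the same order. The Cy-5 level was highest on C10-416 and lowest on C10-437, whereas the Cy-3 level was lowest on C10-415 and highest on C10-435.

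The Cy-3 level of this probe ranged over 2.34 on the log2 scale, against a median range of 0.37 for the 17612 probes, and 99.6% of them had a smaller Cy-3 range. Its Cy-5 level ranged over 2.12, against a median of 0.95, and 96.8% had a smaller Cy-5 range. The Cy-3 levels of the other members were steady by comparison, with ranges of 0.26 for Naip2, 0.24 for Naip5 and 0.33 for the second Naip6 probe, except for the dim Naip1, at 1.75. Both dyes thus entered the spread of the Naip6 ratio, and what changed its Cy-3 signal was not tested.

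**Figure D3:**
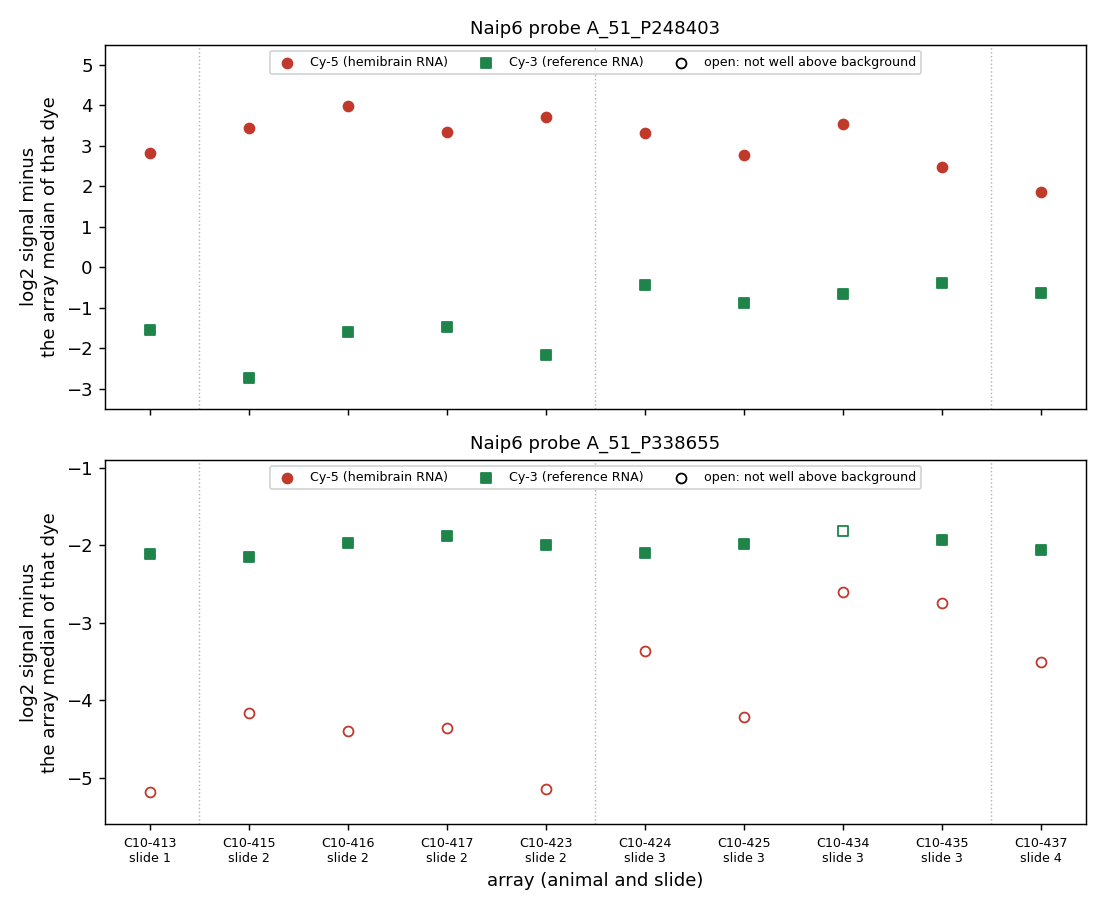
Levels of the 2 Naip6 probes in each dye (y axis, log2 signal less the array's median in that dye) on each of the 10 arrays (x axis), with Cy-5 as red circles and Cy-3 as green squares and open symbols where the spot was not well above background. In the upper panel the Cy-3 level of A_51_P248403 is between -2.73 and -1.46 on slides 1 and 2 and between -0.88 and -0.39 on slides 3 and 4, while in the lower panel the Cy-3 level of A_51_P338655 stays between -2.15 and -1.82.

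The arrays of slide 2 and slide 3 did not overlap for Naip6. Log2 Cy-5/Cy-3 of the brighter probe lay between 4.82 and 6.18 on slide 2 and between 2.93 and 4.12 on slide 3, a gap of 0.71. Its Cy-3 levels did not overlap either, at -2.73 to -1.46 on slide 2 and -0.88 to -0.39 on slide 3, whereas its Cy-5 levels did, at 3.33 to 3.98 and 2.49 to 3.54. That overlap in Cy-5 came from the dim array C10-434 alone, at 3.54. The next highest array of slide 3, C10-424, was at 3.31, just below the lowest of slide 2. Among all probes, 2.32% had ratios that were all lower on slide 3 than on slide 2, and 3.35% had ratios that were all higher. Of the 5 Naip probes, the brighter Naip6 probe was in the first set and none was in the second. The slides hold different mice whose diets are not known, so slide, labeling and animal cannot be told apart. The separation ended under the normexp background correction, where the lowest array of slide 2 was C10-415, at 1.56, and the highest of slide 3 stood at 3.31.

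The second Naip6 probe, A_51_P338655, designed to the same accession, gave another picture. In Cy-5 it was well above background on 0 of the 10 arrays, and in Cy-3 on 9, all but C10-434. Its log2 Cy-5/Cy-3, computed from a Cy-5 signal at the level of background, ran from -3.11 on C10-423 to -0.75 on C10-435, with a median of -2.09. That median was -0.21 with normexp and -0.36 with subtraction and a floor. Cy-3 was also set against the lowest Cy-5 signal well above background on each array, or the probe's own Cy-5 signal where that was higher. By this approximate bound it was 1.19-fold to 2.42-fold higher on these 9 arrays, with a median of 1.55-fold. On C10-435 the bound, at 1.68-fold, was the computed ratio itself, with a software error of 0.46. The Cy-5 signal of the one probe was above that of the reference on every array, and that of the other was below it by this approximate bound wherever one could be given.

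Of 6303 accessions with several probes, 7.49% had a brightest probe and a most distant probe whose computed ratios were of opposite sign on all 10 arrays, as those of Naip6 were. The size of the gap between the Naip6 probes was not measurable, because the second has only a bound. When the probes of Naip6 were averaged, its median log2 Cy-5/Cy-3 was 1.24 in place of 4.28, its range was 1.53, and the slides overlapped. Which parts of the transcript the probes read, and whether either reads another Naip copy, was not tested.

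Naip2 (A_51_P265026, NM_010872) was the member farthest below the reference. Its log2 Cy-5/Cy-3 was -4.32 on C10-413, -3.68 on C10-415, -3.91 on C10-416, -3.71 on C10-417, -4.27 on C10-423, -4.21 on C10-424, -4.18 on C10-425, -4.43 on C10-434, -3.72 on C10-435 and -4.38 on C10-437. All arrays lay within 0.75 of each other, although this range was 2.64 with normexp and 1.29 with subtraction and a floor. The software error of a single spot was 0.40 to 0.48. No neighbours in the order differed by more than their combined error, but the ends did, at 0.75 against 0.63. Cy-3 was well above background on all 10 arrays and Cy-5 on 9. On C10-434, where Cy-5 was not well above background, Cy-3 was at least 12.3-fold higher. Of all probes, 1.59% had a lower median ratio.

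Naip5 (A_52_P300786, NM_010870) was well above background in both dyes on all arrays. Its log2 Cy-5/Cy-3 was -2.61 on C10-413, -2.38 on C10-415, -2.65 on C10-416, -2.40 on C10-417, -2.02 on C10-423, -2.42 on C10-424, -2.36 on C10-425, -1.93 on C10-434, -2.01 on C10-435 and -2.39 on C10-437. The highest and the lowest array were 0.73 apart, or 1.49 with normexp and 1.13 with subtraction and a floor. The software error of a single spot was 0.28 to 0.32. No neighbours in the order differed by more than their combined error, but the ends did, at 0.73 against 0.44. Naip5, first mapped as the Legionella resistance locus of inbred mice, varied over the arrays about as little as Naip2 by the processed signals. With normexp the range was 1.49 for Naip5 and 2.64 for Naip2. Naip6, the other flagellin sensor, varied over 3.65 by its brighter probe and over 1.53 with its probes averaged.

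Naip1 (A_51_P289392, NM_008670) was at the limit of detection. In Cy-5 it was well above background on 2 arrays, C10-423 and C10-424, where log2 Cy-5/Cy-3 was -0.38 and -0.19, with software errors of 0.36 and 0.37. In Cy-3 it was well above background on 7 arrays, all but C10-425, C10-434 and C10-435. Over the 10 arrays its values ran from -1.56 on C10-425 to 0.05 on C10-435, and the error of a spot reached 1.50. On the 5 arrays where only Cy-3 was well above background, the bound on Cy-3 over Cy-5 was between 1.02-fold and 1.51-fold on 4 arrays and gave no fold on C10-415. On C10-417 and C10-437, both at 1.02-fold, it was the computed ratio itself and lay within the software errors of 0.40 and 0.41. On C10-424 the ratio was within its software error, and on C10-423 it was slightly beyond it.

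The remaining inflammasome genes were taken from a list of 18, of which 16 were measured. In Cy-5 9 of these were well above background on all 10 arrays, beside 49.4% of all probes. By computed ratios, 7 were at least 2-fold higher in Cy-3 on all arrays, beside 14.3% of all probes. At least 2-fold higher in Cy-5 was 1 gene, beside 12.4%. The 7 include Casp4 and Il1b, whose Cy-5 was well above background on 9 arrays and on 1 array. Of the 14 genes whose Cy-5 passed the background flag on at least 1 array, 11 had a median log2 Cy-5/Cy-3 below 0 and 3 above it. Their median was -1.54, beside 0.03 over all probes. Nlrc4, the adaptor that every NAIP needs, was not well above background in either dye on any array, so it has no ratio here. Aim2, a sensor of cytosolic DNA, was also not well above background in Cy-5 on any array.

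Il18, the cytokine that the inflammasome matures, was the gene of this list highest over the reference, with a median of 2.34 and a range over the arrays from 2.01 to 2.79. Gsdme, a pore former related to gasdermin D, had a median of 0.85, and Nlrp3, the sensor of membrane damage and crystals, a median of 0.60 with Cy-5 above background on 9 arrays. Casp4, the caspase that binds bacterial lipopolysaccharide, was lowest, with a median of -5.51 and Cy-5 above background on 9 arrays. Below 0 on all arrays were also the initiator caspase Casp8, at a median of -3.88, the pore former Gsdmd at -3.55, the effector caspase Casp1 at -2.41, the adaptor Pycard at -1.59, the kinase Nek7 at -1.55, the membrane rupture protein Ninj1 at -1.54 and the myeloid transcription factor Irf8 at -0.35. Il1b, at -2.19, and Nlrp1a, at -1.27, were above background in Cy-5 on 1 array each, and Mefv, at -0.30, on 7. The median range over the arrays of this list was 0.95. No gene of it separated slides 2 and 3, beside 2.32% of all probes lower on slide 3 and 3.35% higher.

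Of the 6 other inhibitor of apoptosis genes, 5 were measured. Birc5, or survivin, which acts in cell division, had a median of -5.57, Birc3 a median of -2.96 and Xiap, the direct caspase inhibitor, a median of -2.59 with Cy-5 above background on 8 arrays. By computed ratios these 3 genes were at least 2-fold higher in Cy-3 on all arrays, beside 14.3% of all probes. Birc2, a ubiquitin ligase in TNF signalling, had a median of 0.30, and Birc6 a median of 0.07. Only Birc3 separated the slides, with all arrays of slide 3 above those of slide 2, which is the opposite side from Naip6. Of all probes, 3.35% separated on that side.

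**Figure D4:**
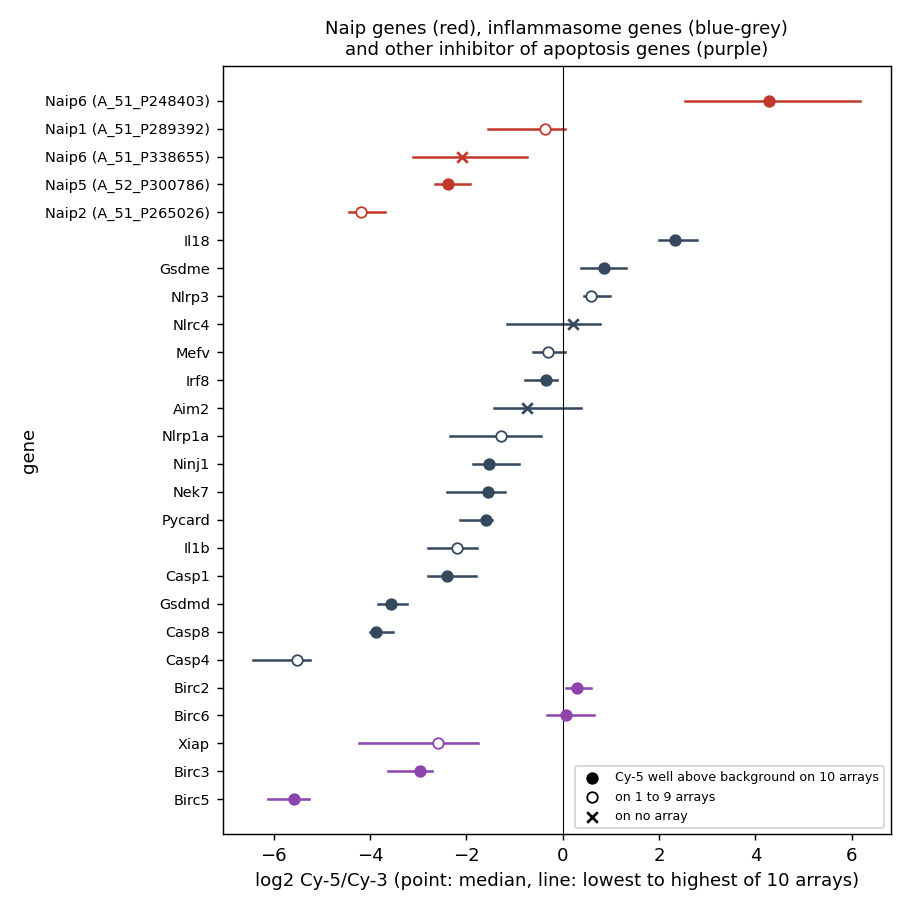
Median (point) and lowest to highest value (line) of log2 Cy-5/Cy-3 over the 10 arrays (x axis) for the 5 Naip probes (red), 16 inflammasome genes (blue-grey) and 5 other inhibitor of apoptosis genes (purple). Open points and crosses mark genes whose Cy-5 signal was not well above background on all arrays or on any array, and the brighter Naip6 probe is the highest entry, at 4.28.

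The neighbours of the Naip genes on the chromosome were described as a list. All 13 genes of the region were measured, with a median of -0.47 and a median range of 1.01. Among those above background on every array in Cy-5, Cartpt, a neuropeptide precursor, was highest, at 5.38, and Cdk7, the kinase of general transcription factor TFIIH, was lowest, at -1.85. After each gene's own median was removed, the median deviation over the 13 genes ran from -0.25 on C10-415 to 0.22 on C10-435.

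Markers of the cells that could carry Naip transcripts were set beside these values. Of 15 microglial markers 14 were measured, and in Cy-5 13 were well above background on every array, beside 49.4% of all probes. Their median log2 Cy-5/Cy-3 was 1.79, and their median deviation stayed between -0.09 on C10-437 and 0.11 on C10-415, where a single gene of the list ranged over a median of 1.00. P2ry12, a purinergic receptor of microglia with the highest computed ratio, was not well above background in Cy-3 on any array and at least 5.72-fold to 57.2-fold higher in Cy-5, so its rank cannot be read. Among the genes well above background on every array in Cy-5 Tyrobp, the adaptor of TREM2, was lowest, at -0.63, and Ptprc, well above background on 9 arrays, stood at -5.89. Of 9 measured markers of monocytes, granulocytes and border macrophages, only Ly6c2, at a median of -0.99, was well above background on every array in Cy-5, beside 49.4% of all probes. Among the 7 that passed in Cy-5 on at least 1 array, 5 had a computed median above 0 and 2 below it. Only 2 of the 9 passed in Cy-3 on every array. The median deviation of the list ran from -0.43 on C10-434 to 0.69 on C10-423. The part of these cells in the Naip values was not tested.

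The neuronal, astrocyte and oligodendrocyte markers were all well above background in Cy-5. Neuronal genes had medians from 3.11 for Tubb3 to 8.34 for Nefl. All 8 were well above background on every array in Cy-5, beside 49.4% of all probes. Astrocyte genes ran from 0.63 for Gja1 to 10.05 for Slc1a2, and the oligodendrocyte gene Mobp stood at 3.26. In endothelium Cldn5 stood at 5.18, Flt1 at 2.18 and Pecam1, above background in Cy-5 on 9 arrays, at -0.22, and in blood Alas2 at 4.15 and Hba-a1 at 4.05. The largest deviations of these lists were 1.02 for neurons and 0.44 for astrocytes, both on the dim array C10-434, -0.36 for oligodendrocytes on C10-437, 0.54 for endothelium on C10-413 and 0.53 for blood on C10-425.

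Other genes followed the order of the arrays seen for Naip6. Pearson's r of log2 Cy-5/Cy-3 with the brighter Naip6 probe was computed over the 10 arrays for 10529 genes well above background in both dyes on all arrays, where the median size of r was 0.23. Among the highest were Dbndd1, a gene with a dysbindin domain (r = 0.94, Spearman's rho = 0.93), the receptor tyrosine phosphatase gene Ptprt (r = 0.93, rho = 0.95), 2900079G21Rik (r = 0.91, rho = 0.92) and Mdh1b (r = 0.90, rho = 0.84). The lowest were Slc25a4, the mitochondrial ADP/ATP carrier (r = -0.91, rho = -0.98), and Cpsf7, a factor of 3′ end processing (r = -0.91, rho = -0.90). Without C10-415 and C10-437, the arrays farthest from the median of Naip6, r was 0.82 to 0.88 for the first set, -0.98 for Slc25a4 and -0.85 for Cpsf7. These first 4 genes were lower on all arrays of slide 3 than on slide 2, as Naip6 was, and the last 2 were higher. These points share arrays and slides, and the genes were picked as the extremes of many. None of those named moved as far as Naip6, with ranges from 0.26 for Cpsf7 to 1.97 for Mdh1b.

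The other Naip probes were not among these genes, and of them only Naip5 was bright enough to be ranked. With the brighter Naip6 probe over the same 10 arrays, r was 0.32 for Naip2, -0.16 for Naip5 and -0.33 for Naip1, and -0.64 for the second Naip6 probe. Without C10-415 and C10-437 these values were -0.11, -0.24, -0.25 and -0.75. The 2 probes of Naip6 thus tended to opposite orders over the arrays, with the Cy-5 signal of the second not well above background on any of them.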

How the data were processed

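The authors hybridized each hemibrain RNA in Cy-5 with an RNA in Cy-3 to dual dye arrays of 41174 probes and deposited the output of Feature Extraction (version 10.10.1.1, per the file headers). Per the file headers, the deposited signals are linear intensities, the deposited log ratio of a spot is a log10 of Cy-5 over Cy-3, and the software had already corrected background and normalized the dyes. The authors also deposited a table of log2 values, again Cy-5 over Cy-3, identical to those computed here to 0.01 on 100% of 40060 probes. Its direction follows the dyes, it is not centred, and its column medians run from -0.05 to 0.10.

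Here log2 Cy-5/Cy-3 was the log2 of the processed signals, without control spots or spots flagged as outliers, and the spots of a probe were averaged. Ratios of 27190 probes (66.0%) were named through RefSeq accessions of GRCm38.p6, used for names alone, since the headers give mm9. A gene was represented by its brightest probe. The above background flag of a probe needed a share of 0.5 of its spots. A bound set the signal of a dye against the higher of the probe's own signal in the other dye and the lowest signal well above background there, on processed signals of the same array, without balanced dye swaps. Such a bound is approximate, since a spot brighter than that lowest signal can still fail the flag.

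Since no array has a group, no test was made and no p-value was computed. Slides were read from the headers. For C10-437 the label gives position 5 on its slide and the file position 1. All slides were scanned on 1 day. Members and gene lists were chosen with earlier results of these data known. Genes named were the probes of the members, the inflammasome and inhibitor of apoptosis lists, the highest and lowest gene of the other lists among those above background on every array in Cy-5, and the 5 and 2 genes with the highest and lowest correlation with Naip6. Some genes under this rule are not reported here. S100a8, S100a9, Ptprc and Pecam1 were named after their values were seen.

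Alternatives were loess within each array (span 0.3), centring on the median, the deposited table, normexp (offset 50) on median signals, subtraction with a floor of 0.5 and the same offset, outlier-flagged spots kept, all probes of a gene, arrays above background in both dyes, and each array left out. Computation was in Python (numpy, pandas) and in R 4.3.3 (limma 3.58.1).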

Additional observations from a re-analysis of the deposited data

Results flagged for a closer look

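For each of the 5 Naip probes, the ratio and the level in each dye were searched for an array that stands apart from the other 9, which makes 15 measures, and chance marks about 1 in 20. A single value stood apart. The Cy-3 level of Naip1 on C10-435 was -3.93 on the log2 scale relative to the array's median, against -2.81 on the nearest array, C10-425. The probe was not well above background in Cy-3 on either array. None of the ratios stood apart, those of Naip6 included.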

How the results depend on the processing

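Naip6 stayed above 0 and Naip2 and Naip5 below 0 on all arrays under all alternatives run, whereas Naip1 had 1 to 3 arrays above 0 under every setting that kept all arrays. The deposited table and the keeping of flagged spots left the Naip values the same, so they could not change a sign. With normexp, C10-413 came close to 0, at 0.14 for Naip6, -0.17 for Naip2 and -0.06 for Naip5. Loess within each array, which moved the median of all probes by 0.10 to 0.27 on the log2 scale, centring, the deposited table and keeping flagged spots left every median and range within the spread between arrays. With normexp, the medians were -2.31 for Naip2, -1.29 for Naip5 and 2.84 for Naip6, the ranges were 0.66 for Naip1, 2.64 for Naip2 and 1.49 for Naip5, and the gap of Naip6 between slides 2 and 3 turned to -1.75. With subtraction and a floor, the medians were -2.65 for Naip2 and -1.45 for Naip5, and the ranges were 0.70 for Naip1, 1.29 for Naip2 and 1.13 for Naip5. The mean of both Naip6 probes gave a median of 1.24, a range of 1.53 and a gap of -0.44, since the second probe is of the opposite sign. On the 2 arrays above background in both dyes, the range of Naip1 was 0.19.

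Leaving out each array in turn gave medians of -0.38 to -0.34 for Naip1, -4.21 to -4.18 for Naip2, -2.39 to -2.38 for Naip5 and 4.12 to 4.43 for Naip6. The ranges were 1.52 to 1.61, 0.70 to 0.75, 0.64 to 0.73 and 3.24 to 3.65 in the same order, and the gap between the slides was 0.71 to 1.49. With normexp and with the floor, r with Naip6 was 0.88 and 0.88 for Dbndd1 and 0.94 and 0.84 for Ptprt. For Slc25a4 it was weaker, at -0.54 and -0.56. It fell to 0.35 for 2900079G21Rik with the floor and to 0.29 for Mdh1b with normexp. For Cpsf7 it changed sign to 0.23 with normexp and was -0.49 with the floor. The cause was not tested.

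No paired analysis was possible because no array has a group and no test was made. The dim signals of Naip1 and of the second Naip6 probe in Cy-5 limit what their ratios can show.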

Other observations

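S100a8 and S100a9 encode the subunits of calprotectin, a protein of neutrophils and monocytes. Log2 Cy-5/Cy-3 of S100a9 was 2.03 on C10-413, 3.21 on C10-417, 2.56 on C10-424, 2.05 on C10-435 and 1.89 on C10-437, the 5 arrays on which its probe was well above background in both dyes. On C10-415, C10-416, C10-423 and C10-425 only its Cy-5 was well above background, and on C10-434 neither dye was. Its Cy-5 level relative to the array's median was highest on C10-423, at 1.22. S100a8 passed the background flag in Cy-3 on all arrays and in Cy-5 on C10-423 alone, where log2 Cy-5/Cy-3 was -4.47. No cause was tested.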
